A study of Canis lupus familiaris with 34 samples.

Results

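The interleukin-1 family was described in mitral valve RNA through 10 genes, namely IL1A, IL1B, IL33, IL18, IL1RN, IL1R1, IL1RAP, IL1RL1, IL18R1 and IL1R2. The family was chosen by the measured fold change and false discovery rate (FDR) of IL1R2 between dogs with and without heart failure, so the IL1R2 values of that contrast are given as a description. Each member was found by its symbol among the 23768 features of the deposited table, with the canine RefSeq feature taken where a symbol was also listed as a human alignment. All 10 members had a sum of at least 100 counts over the dogs and were among the 19568 features tested.

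Mitral valves, collected at elective euthanasia, came from 34 privately owned, elderly Cavalier King Charles Spaniels, a breed prone to myxomatous mitral valve disease (MMVD). The 10y-noCHF group held 19 dogs (10 females, 9 males) without congestive heart failure (CHF), and the 10y-MMVD-CHF group held 15 dogs (6 females, 9 males) with CHF caused by MMVD. Both groups were of similar age, and nearly all dogs without CHF also had MMVD at an earlier stage, so the contrast is not one of diseased against healthy valves. Stage, age, weight and collection date were not paired with the dogs and were not analysed here.

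Interleukin-1 alpha and beta are alarm cytokines that bind the receptor IL1R1, which then recruits the accessory protein IL1RAP and signals through MYD88 and IRAK kinases to NF-kB. The same signal is restrained by IL1RN, a secreted antagonist that occupies IL1R1, and by IL1R2, a decoy receptor that binds interleukin-1 but lacks the signalling domain. IL33 and IL18 are related cytokines with receptors of their own, IL1RL1 (ST2) and IL18R1, and IL33 is stored in the nuclei of stromal and endothelial cells.

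The members lie in a few loci of the canFam4 assembly. Of the receptors, 4 share a stretch of chromosome 10 on the minus strand. Their features are IL18R1 at 41668726 to 41696322, IL1RL1 at 41713586 to 41730622, IL1R1 at 41880451 to 41979135 and IL1R2 at 42021642 to 42040208. The accessory receptor IL1RAP is on chromosome 34 at 22731904 to 22810109. On chromosome 17 lie IL1A (37152126 to 37160990), IL1B (37201034 to 37205552) and IL1RN (37426795 to 37431843), while IL33 is on chromosome 11 (27281817 to 27318668) and IL18 on chromosome 5 (21018633 to 21028888). The receptor features are human gene alignments that span introns as well as exons, whereas the ligand and antagonist features are canine exon blocks. The IL1R2 feature covers 51.3% of the length of the canine RefSeq gene. No block of a member overlapped a feature of another symbol.

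Total counts ranged from 46185256 to 82361245 per dog. Valve interstitial cell markers (VIM, DCN, LUM, collagens, PDGFRA and POSTN) summed to between 13100 and 35924 CPM (counts scaled to the effective library size), and endothelial markers to between 537 and 1385 CPM, so markers of both resident valve populations were detected in every dog. Cardiomyocyte markers varied from 54.2 to 44910 CPM. A pair of 10y-MMVD-CHF libraries stood apart. The male CAV614 had the highest sums of red cell (4270 CPM, median of all dogs 49.5) and neutrophil markers (170 CPM, median 11.5), and the female CAV1047 had the lowest total count and the highest sums of cardiomyocyte, mast cell, adipocyte and Schwann cell markers. In the red cell list HBA1 and HBA2 hold the same counts, so those reads enter that sum more than once. The IL1R2 contrast and the counts of relations among dogs are given with and without CAV614 and CAV1047. None of the 11 marker lists differed between the groups (two-sided permutation test of the CHF labels within sex, lowest p = 0.111, adjusted p = 0.832, for adipocyte markers). Single marker genes with an unadjusted edgeR p below 0.05 were CD14, TEK and ALAS2, higher in 10y-MMVD-CHF, and CPA3, TPSAB1, JCHAIN, MYL2 and PLIN1, lower, and none of them had an edgeR FDR below 0.1.

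IL33 was by far the most abundant ligand, and the classical agonists had few counts. On the scale of CPM per kilobase of feature, which can be compared within the canine exon features, the median over the dogs was 213 for IL33, 15.8 for IL18, 7.80 for IL1RN, 0.41 for IL1A and 0.22 for IL1B. IL33 exceeded IL18 in 34 of 34 dogs and IL18 exceeded IL1RN in 32. IL1RN exceeded IL1A in all 34 dogs, whereas IL1A and IL1B were close, with IL1A above IL1B in 25 of 34. The canine features did not hold all reads of these loci. Against the intron-spanning human alignment of the same symbol they held 91.5% of the counts for IL33. The share was 54.2% for IL1A, 55.0% for IL1B, 55.7% for IL1RN and 51.8% for IL18. The receptors were measured on intron-spanning features and are not compared with the ligands. Their medians were 1.45 for IL1R1, 0.55 for IL1RAP, 0.33 for IL1R2, 0.28 for IL1RL1 and 0.016 for IL18R1 CPM per kilobase. IL1R1 was above IL1RAP in every dog and IL1RAP above IL1R2 in 29, but IL1R2 was above IL1RL1 in only 18 of 34 dogs, so the order of those 2 is not settled by the spread. These receptor features cover their genes unequally. The IL1R1 feature has 137.3% of the length of its RefSeq gene, against 61.1% for IL1RAP and 51.3% for IL1R2. The order of densities is therefore not read as an order of RNA levels between the receptors.

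**Figure D1:**
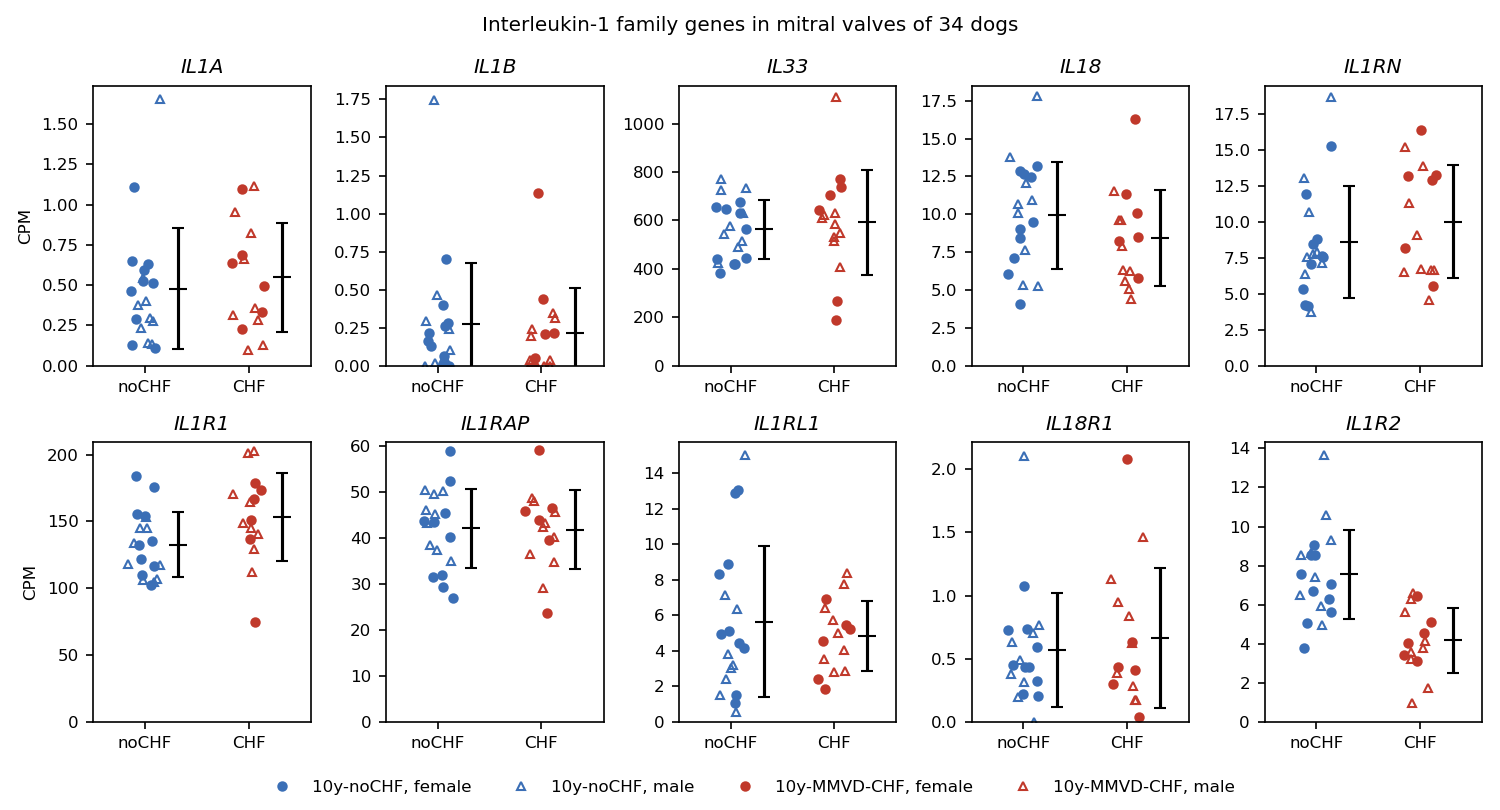
CPM of each of the 10 members in every dog, by group and sex, with the group mean and SD as a bar beside the points; each panel has its own axis from 0. The 15 10y-MMVD-CHF dogs have IL1R2 values of at most 6.58 CPM, below 12 of the 19 10y-noCHF dogs, whereas the groups overlap widely for the other members.

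The agonists IL1A and IL1B were near the floor of detection. IL1A had 0.11 CPM in the lowest 10y-noCHF dog, a median of 0.40 and a highest value of 1.66, and in 10y-MMVD-CHF the corresponding values were 0.099, 0.49 and 1.12. Its log2 fold change between 10y-MMVD-CHF and 10y-noCHF was 0.22 (standard error, SE, 0.35, edgeR FDR = 0.961), an estimate whose 95% interval from -0.47 to 0.91 leaves room for a sizeable change in either direction. The IL1A estimate was 0.10 without CAV1872 and 0.53 without CAV743. IL1B had a median of 0.16 CPM in 10y-noCHF and 0.20 CPM in 10y-MMVD-CHF, with highest values of 1.74 and 1.13 CPM. It had 0 counts in 3 dogs of each group, which allows up to 0.051 to 0.057 CPM in those dogs (3 counts). The IL1B log2 fold change was -0.37 (SE 0.70, edgeR FDR = 0.966), and it became 0.22 without a single 10y-noCHF male, CAV743. Its 95% interval, from -1.75 to 1.01, was the widest of the 10 members, and the parts of low counts and of spread between dogs in that width were not tested.

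IL33 and IL18, the other cytokines of the family, were measured far more precisely. IL33 ranged from 381 to 769 CPM in 10y-noCHF (median 563) and from 190 to 1109 CPM in 10y-MMVD-CHF (median 609). The 10y-MMVD-CHF dogs therefore covered the whole 10y-noCHF range and extended beyond it on both sides, with CAV1047 the lowest dog. The IL33 log2 fold change was 0.05 (SE 0.15, 95% interval from -0.24 to 0.35, edgeR FDR = 0.981), and the sign changed without CAV1519 or without CAV2156, the highest dog, which gave -0.029. IL18 ranged from 4.10 to 17.8 CPM in 10y-noCHF (median 10.1) and from 4.39 to 16.3 CPM in 10y-MMVD-CHF (median 8.22). Although 12 of the 15 10y-MMVD-CHF dogs were under the IL18 median of 10y-noCHF, the groups overlapped, and the log2 fold change of -0.23 (SE 0.18) did not pass (edgeR FDR = 0.887).

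The antagonist IL1RN, which blocks IL1R1 without activating it, ranged from 3.75 to 18.7 CPM in 10y-noCHF (median 7.62) and from 4.59 to 16.4 CPM in 10y-MMVD-CHF (median 9.12). Its log2 fold change was 0.22 (SE 0.20, edgeR FDR = 0.920), and 0.33 without CAV743. In 10y-MMVD-CHF females IL1RN averaged 11.6 ± 3.97 CPM (SD, n = 6) against 8.06 ± 3.45 CPM (SD, n = 10) in 10y-noCHF females, while the male means were 8.98 ± 3.72 (SD, n = 9) and 9.22 ± 4.42 CPM (SD, n = 9). This difference between the sexes did not pass the interaction test described below.

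The signalling receptor IL1R1 was measured with 133 ± 24.2 CPM (SD, n = 19) in 10y-noCHF and 153 ± 33.1 CPM (SD, n = 15) in 10y-MMVD-CHF. Of the 15 10y-MMVD-CHF dogs, 12 were above the 10y-noCHF median of 133 CPM, and CAV1047, at 75.0 CPM, was the only one below the 10y-noCHF minimum of 102 CPM. The log2 fold change was 0.22 (SE 0.10, unadjusted p = 0.0437, edgeR FDR = 0.778), and without CAV1047 it was 0.28, while with macrophage markers as a covariate it was 0.14. Its partner IL1RAP, which IL33 and IL1RL1 also use, had 42.1 ± 8.54 and 41.8 ± 8.53 CPM in the respective groups, so the log2 estimate was -0.013 with a 95% interval from -0.22 to 0.19, and its sign changed without any one of CAV1041, CAV1047, CAV1939, CAV373, CAV487, CAV576, CAV743, CAV749 and CAV828. Among the 10 members, IL1RAP had the smallest coefficient of variation over all dogs.

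The receptors of IL33 and IL18 varied strongly between dogs. IL1RL1 spanned a 26.9-fold range, from 0.56 to 15.01 CPM in 10y-noCHF (median 4.41) and from 1.85 to 8.40 CPM in 10y-MMVD-CHF, where 9 of 15 dogs were above that median. The extremes were both 10y-noCHF males, and the 4 highest dogs were also 10y-noCHF. The log2 fold change was -0.18 (SE 0.34, edgeR FDR = 0.965), and 0.05 without CAV865. IL18R1 had medians of 0.45 and 0.44 CPM and a log2 fold change of 0.21 (SE 0.43, edgeR FDR = 0.968), which was -0.15 without CAV1872. IL18R1 had 0 counts in 1 dog and a median of 33 counts over all dogs, and its 95% interval ran from -0.63 to 1.05.

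The decoy receptor IL1R2 was the member for which the family was chosen. In 10y-noCHF it ranged from 3.77 to 13.7 CPM with a median of 7.39, and in 10y-MMVD-CHF from 0.95 to 6.58 CPM with a median of 4.05. Every one of the 15 10y-MMVD-CHF values fell under the median of 10y-noCHF, 6 of them lay below the lowest 10y-noCHF dog, and 12 of 19 10y-noCHF dogs lay above the highest 10y-MMVD-CHF dog. The groups still overlapped between 3.77 and 6.58 CPM. Means were 7.57 ± 2.28 CPM (SD, n = 19) and 4.17 ± 1.65 CPM (SD, n = 15). The edgeR log2 fold change was -0.86 (SE 0.19, FDR = 0.0795), which placed IL1R2 at rank 15 of the features by p. It was the only member with an FDR below 0.1 (1 of 10), where 0.118% of all features tested were called and 0.092% were called lower, and since the contrast was used to choose it, nothing is read from that count. The nearest member outside the threshold was IL1R1, at FDR = 0.778. In RNA from whole valves, fewer cells of a type that carries IL1R2 and less IL1R2 RNA per cell cannot be told apart.

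The same direction was seen in both sexes. Females had 6.82 ± 1.68 CPM of IL1R2 (SD, n = 10) without CHF and 4.45 ± 1.22 CPM (SD, n = 6) with CHF, and males had 8.39 ± 2.65 CPM (SD, n = 9) and 3.99 ± 1.93 CPM (SD, n = 9). The 2 lowest dogs were the 10y-MMVD-CHF males CAV614 (64 counts, 0.95 CPM) and CAV648 (118 counts, 1.71 CPM). Without CAV614 and CAV1047 the log2 fold change was -0.78 (edgeR FDR = 0.0623). With the mean level of interstitial, macrophage, neutrophil or cardiomyocyte markers as a covariate it lay between -0.89 and -0.84, with edgeR FDR values from 0.0308 to 0.0848. With each dog left out in turn it ranged from -0.93 to -0.79 and the FDR from 0.0419 to 0.168, so the edgeR call was close to the threshold. DESeq2, the tool of the study, gave the same log2 fold change of -0.86 with FDR = 0.00536, and limma voom gave FDR = 0.0637. The edgeR call was lost without any one of CAV1097, CAV1196, CAV1259, CAV1519, CAV1790, CAV1939, CAV2102, CAV285, CAV373, CAV444, CAV447, CAV488, CAV494, CAV648, CAV828 and CAV901.

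**Figure D2:**
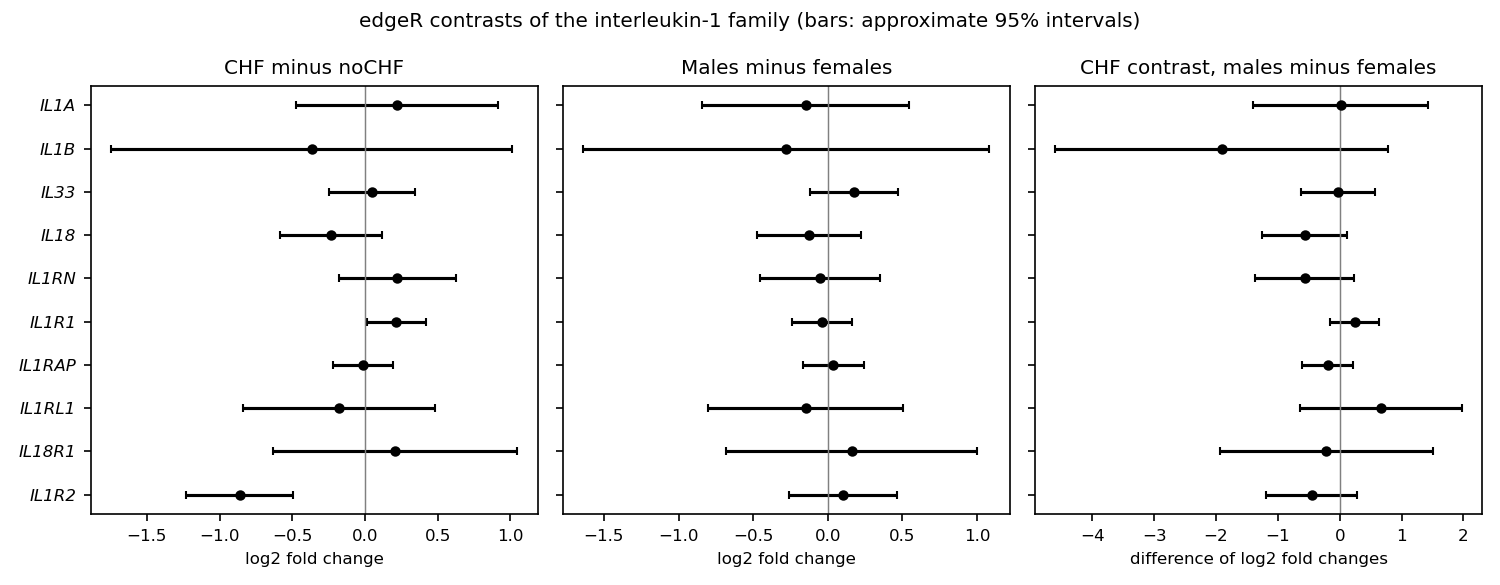
edgeR estimates with approximate 95% intervals for the 10 members, for 10y-MMVD-CHF minus 10y-noCHF, for males minus females, and for the CHF contrast in males minus that in females, all on the log2 scale. The interval of IL1R2 runs from -1.23 to -0.49 in the first panel, that of IL1R1 starts at 0.014, and every interval of the other panels includes 0.

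Sex and its interplay with CHF were not used in choosing the members and were tested in the same model. None of the 10 members differed between males and females (edgeR FDR = 0.9997 for each), where 0.143% of all features were called, and at an unadjusted p below 0.05 the count was 0 members beside 2.98% of all features. The estimates lay between -0.28 for IL1B and 0.18 for IL33. For the interaction of CHF and sex, 0 members and 0% of all features had an edgeR FDR below 0.1, while 6.02% of all features and 0 members had an unadjusted p below 0.05. DESeq2 and limma voom also called 0 members for sex and for the interaction. The smallest interaction p of a member was that of IL18, whose log2 fold change was lower in males than in females by -0.57 (95% interval from -1.26 to 0.13, p = 0.118, edgeR FDR = 0.858). For IL1R2 the difference was -0.46 (95% interval from -1.18 to 0.27, edgeR FDR = 0.921), so these data do not settle whether the sexes differed in it.

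Because IL1R2 and IL1R1 compete for the same ligands, their balance was also computed within each dog as the log2 ratio of CPM per kilobase. The ratio of IL1R2 to IL1R1 averaged -1.74 ± 0.56 (SD, n = 19) in 10y-noCHF and -2.85 ± 0.88 (SD, n = 15) in 10y-MMVD-CHF, a difference of -1.11. It ranged from -2.91 to -0.55 in the former and from -5.17 to -1.77 in the latter, and in 15 of 15 10y-MMVD-CHF dogs it was under the median of 10y-noCHF. These values used a pseudocount of 0.1 CPM, and with 1 CPM the difference was -0.95 and 14 of 15 dogs were under that median. This ratio contains the contrast that chose IL1R2 and was not tested. Its level also depends on how much of each gene the IL1R2 and IL1R1 features cover. The ratio of IL1RN to IL1B averaged 4.58 ± 1.01 and 4.99 ± 0.97 in the same order, and 2.54 ± 0.46 and 2.80 ± 0.49 with the larger pseudocount, so its level depends on the pseudocount. Between groups it differed by 0.41 and 0.26, less than 1 SD of either group under each pseudocount. For IL18R1 to IL18, whose features are of different kinds so that only the difference between groups can be read, the difference was 0.34, also smaller than 1 SD of either group.

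**Figure D3:**
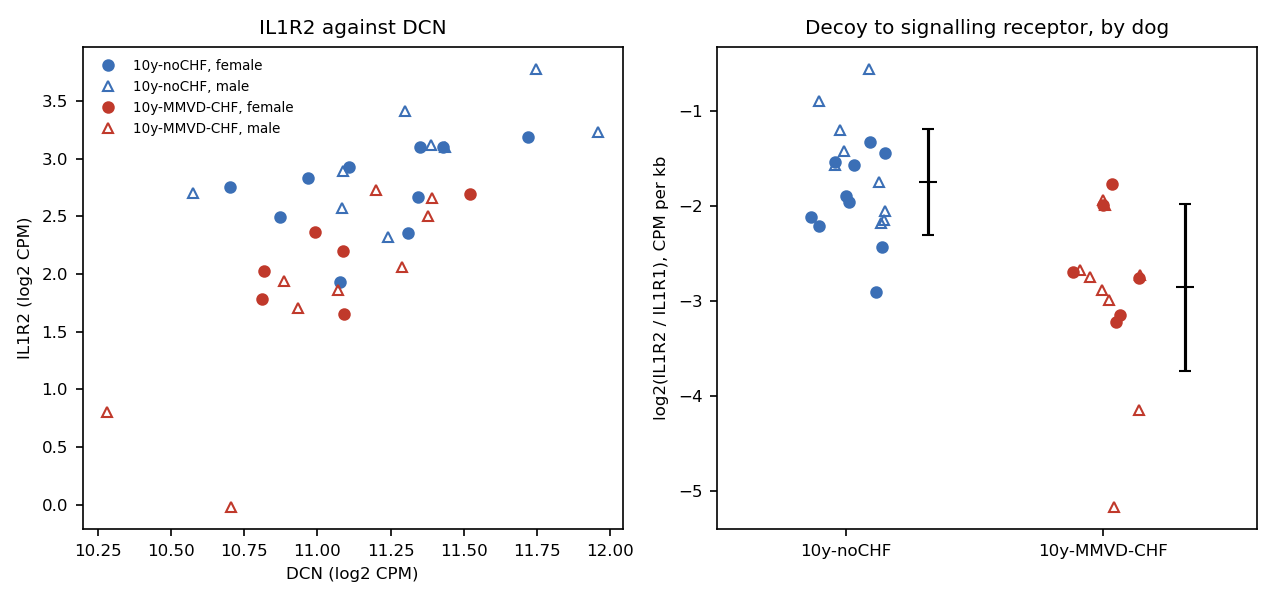
Left, IL1R2 against DCN, both as log2 CPM, in each of the 34 dogs; right, the log2 ratio of IL1R2 to IL1R1 (CPM per kilobase) by dog, with group mean and SD. Dogs with more DCN tend to have more IL1R2 (rho = 0.74 as residuals), and the ratio falls to -5.17 in the lowest 10y-MMVD-CHF dog against -2.91 in the lowest 10y-noCHF dog.

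Co-variation among dogs was examined after removing the means of group and sex, so that the CHF contrast does not enter. Of the 45 pairs of members, 13 had a Spearman permutation p below 0.1 after Benjamini-Hochberg adjustment over the 45, and all 13 were positive. By Spearman's rho the strongest was between the antagonist IL1RN and the cytokine IL18 (Pearson's r = 0.72, permutation p = 1e-05, the smallest the resamples can give, adjusted 0.00045, Spearman's rho = 0.67, permutation p = 4e-05, adjusted 0.0018). IL1R1 and its partner IL1RAP also varied together (r = 0.74, permutation p = 4e-05, adjusted 0.0006, rho = 0.61, permutation p = 0.00051, adjusted 0.0065), as did IL1RAP with IL1RN (r = 0.63, permutation p = 9e-05, adjusted 0.0010, rho = 0.60, permutation p = 0.00044, adjusted 0.0065). Leaving out the 2 dogs farthest from the median of 1 gene of the pair (IL18, IL1RAP and IL1RAP) gave r = 0.71, 0.62 and 0.52 for these pairs. The count of 13 was not stable, since it was 6 without the 2 dogs farthest by 1 gene of each pair and 5 without CAV614 and CAV1047. The share among pairs of other genes was not computed, so the count is not read as particular to the family. The 5 pairs that passed without CAV614 and CAV1047 were IL1RN with IL1A, IL18 and IL1RAP, and IL1RAP with IL1R1 and IL18, and all 5 also passed in the other 2 counts.

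IL1R2 had 0 of 9 correlations with other members past the threshold, 7 of the 9 were negative, and rho ranged from -0.32 with IL1RN to 0.16 with IL33. Without CAV614 and CAV1047 no pair of IL1R2 passed either, and rho ranged from -0.28 with IL1RN to 0.18 with IL1RAP. Its rho with IL18 (0.0066) and IL18R1 (0.086) was then positive, so the count of negative pairs was not stable. With its neighbour on the chromosome, IL1R1, IL1R2 had r = -0.24 (permutation p = 0.179, adjusted 0.278) and rho = -0.22 (permutation p = 0.237, adjusted 0.337). IL1RL1 and IL18R1 also had 0 pairs past the threshold, so the absence of calls is not particular to IL1R2.

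**Figure D4:**
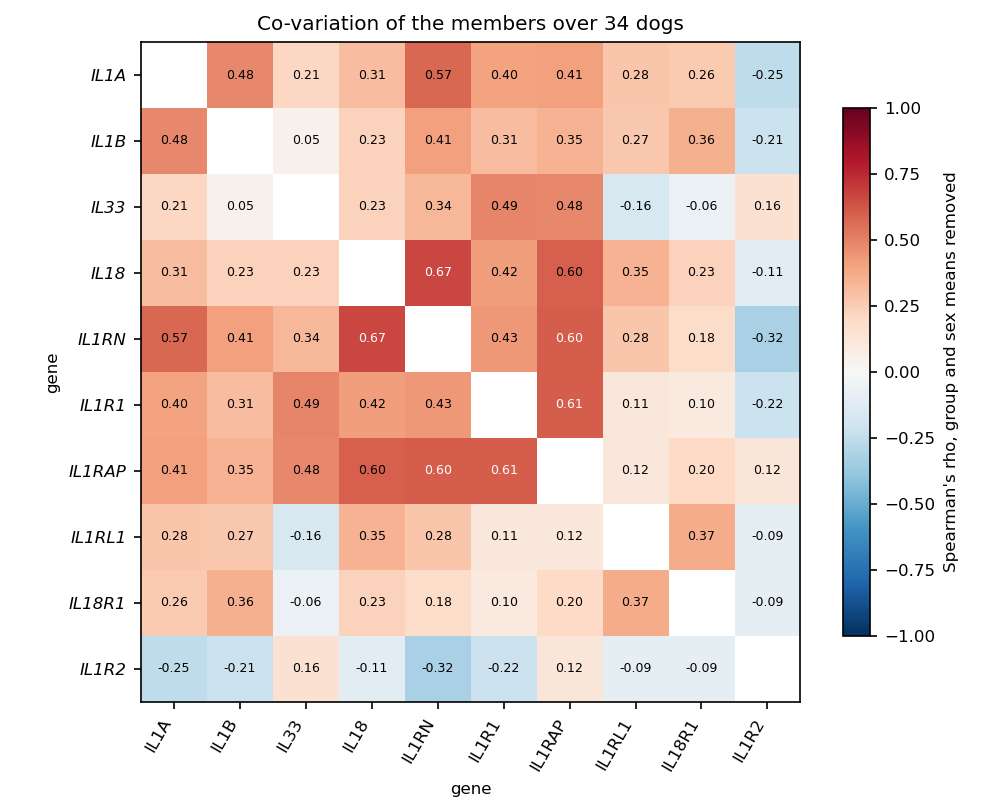
Spearman's rho between each pair of the 10 members over 34 dogs, as residuals on group and sex; red is positive and blue negative, and the diagonal is left blank. IL1RN, IL18, IL1RAP and IL1R1 form a block of positive values that reaches 0.67, whereas the IL1R2 row lies between -0.32 and 0.16.

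The features that varied most like each member, among those with a mean of at least 1 CPM, were found from the same residuals. This likeness is a description over 34 dogs, chosen as the highest over all of those features and given with no test. For IL1R2 the closest features were DCN (decorin, a small proteoglycan of the connective tissue matrix; rho = 0.74), GREB1 (0.71) and PDLIM3 (0.71). For IL18 they were CYTH4 (0.90), EVI2B (0.86) and LY86 (0.86), and for IL1RN they were CLEC4E (0.88), TNFSF8 (0.87) and SASH3 (0.87), genes of which most are known from leukocytes. IL1RAP was nearest to DOCK2, the mannose receptor MRC1 and CASS4 (0.83 each). IL33 was nearest to APCDD1 (0.84), IL1R1 to RBBP8 (0.88) and IL1RL1 to IGFBP2 (0.72). Without CAV614 and CAV1047, DCN was still the closest feature to IL1R2 (rho = 0.70), as were CYTH4 for IL18 (0.87), TNFSF8 for IL1RN (0.87), CASS4 for IL1RAP (0.84) and IGFBP2 for IL1RL1 (0.74), whereas GREB1 moved to rank 15 for IL1R2 and DOCK2 to rank 13 for IL1RAP.

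Of 110 relations between members and the mean log2 CPM of marker lists, 29 had an adjusted Spearman p below 0.1. The number was 13 without the 2 dogs farthest from the median of the marker list and 8 without CAV614 and CAV1047. The share among other genes was not computed, so the count is not read as particular to the members. Macrophage markers rose with IL1RAP (r = 0.79, permutation p = 1e-05, the smallest the resamples can give, adjusted 0.00055, rho = 0.73, permutation p = 3e-05, adjusted 0.0017), with IL18 (r = 0.74, permutation p = 1e-05, adjusted 0.00055, rho = 0.67, permutation p = 0.00012, adjusted 0.0033) and with IL1RN (r = 0.68, permutation p = 9e-05, adjusted 0.0024, rho = 0.59, permutation p = 0.00067, adjusted 0.011). Leaving out the 2 farthest dogs gave r = 0.70, 0.71 and 0.59. IL18 also rose with B cell (rho = 0.58, permutation p = 0.00062, adjusted 0.011) and T cell markers (rho = 0.56, permutation p = 0.00103, adjusted 0.014). IL1RN did so as well (rho = 0.50, permutation p = 0.00521, adjusted 0.044, and rho = 0.44, permutation p = 0.0132, adjusted 0.073). Without CAV614 and CAV1047 these B and T cell relations did not pass. IL1RAP fell as Schwann cell markers rose (rho = -0.61, permutation p = 0.00041, adjusted 0.0090). IL33 fell as cardiomyocyte markers rose (r = -0.62, permutation p = 6e-05, adjusted 0.0022, rho = -0.66, permutation p = 1e-05, adjusted 0.0011, and r = -0.60 without the 2 farthest dogs). The fall was not particular to these markers. IL33 also fell as Schwann cell markers (rho = -0.63, permutation p = 0.00011, adjusted 0.0033) and mast cell markers rose (rho = -0.51, permutation p = 0.0027, adjusted 0.030). For IL1R2, the single relation past the threshold was that with interstitial markers (r = 0.38, permutation p = 0.0255, adjusted 0.0762, rho = 0.46, permutation p = 0.00888, adjusted 0.0609), with r = 0.41 without the 2 farthest dogs and an adjusted p of 0.146 for rho without CAV614 and CAV1047. DCN, which is one of the interstitial markers, was estimated at -0.23 on the log2 scale in the CHF contrast (SE 0.11, edgeR FDR = 0.786). This was the lowest estimate of the 8 interstitial markers, of which 3 were positive and 5 negative, with a median of -0.069. The part of cell composition in the IL1R2 difference was not tested. None of the marker lists used as covariates above differed between the groups, so those fits are no test of it. The other lists were not used as covariates.

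**Figure D5:**
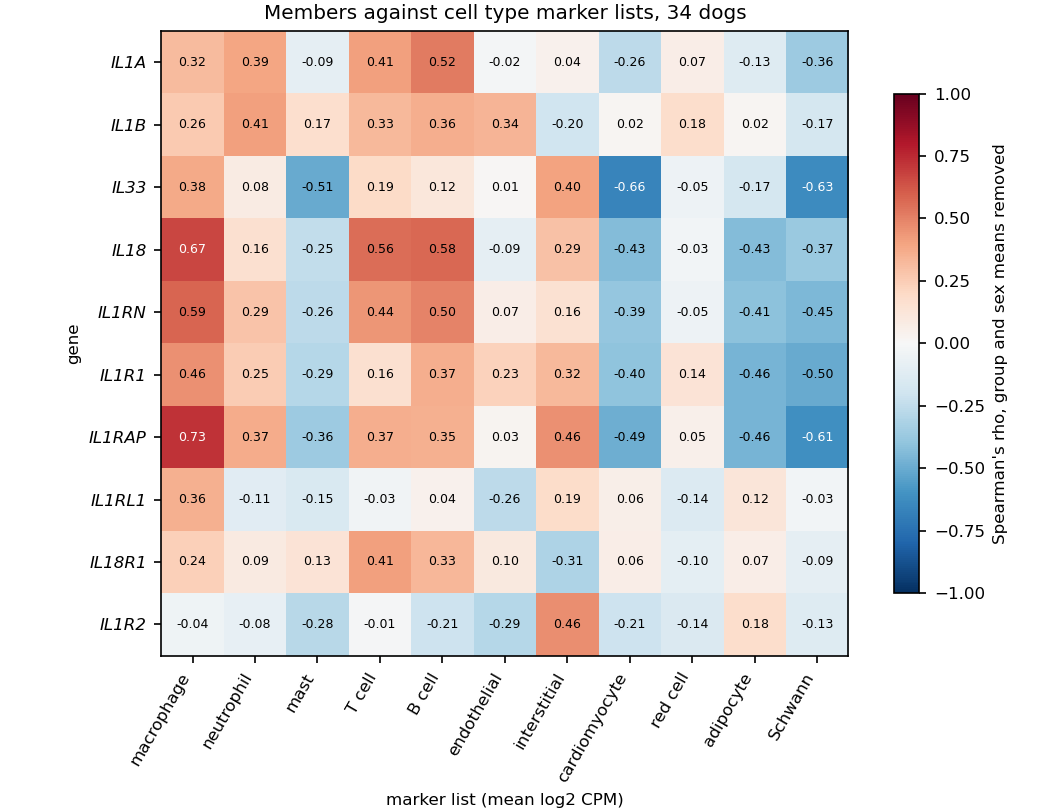
Spearman's rho between each member (rows) and the mean log2 CPM of 11 cell type marker lists (columns) over 34 dogs, as residuals on group and sex. Macrophage markers reach 0.73 with IL1RAP, IL33 is lowest with cardiomyocyte markers at -0.66, and the highest value of IL1R2 is 0.46, with interstitial markers.

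Other genes of the pathway were examined as 3 lists. Of 24 receptor-proximal and signalling genes tested, 0 had an edgeR FDR below 0.1, beside 0.118% of all features. The median log2 fold change was 0.033 beside 0.0076 for all features. At an unadjusted p below 0.05, which 6.31% of all features reached (2.8% higher, 3.51% lower), 2 of the 24 were higher, IRAK3 (log2 fold change 0.30, SE 0.11, edgeR FDR = 0.558), an inhibitory member of the IRAK family, and TRAF6 (0.16, SE 0.058, edgeR FDR = 0.584), an adaptor downstream of the receptor complex. The adaptor MYD88 had 28.1 ± 5.57 CPM in 10y-noCHF and 29.6 ± 5.08 CPM in 10y-MMVD-CHF. IL18BP, the secreted inhibitor of IL18, had 4.97 ± 1.92 and 4.06 ± 1.62 CPM (log2 fold change -0.35, edgeR FDR = 0.805). The IL-36 agonists IL36B and IL36G, IL37 and IL1F10 were below the minimum of 100 counts. DESeq2 and limma voom called 0 genes of this list as well.

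Cytokine maturation was represented by 13 inflammasome and protease genes, with 0 calls by DESeq2 or limma voom. Of the 13, 0 had an edgeR FDR below 0.1 and 0 had an unadjusted p below 0.05, beside 0.118% and 6.31% of all features. With so few genes, nothing is read from these counts. The median log2 fold change of the 13 genes was 0.057. NLRP3, the sensor of the best known inflammasome, had 8.54 ± 3.68 CPM in 10y-noCHF and 8.90 ± 2.87 CPM in 10y-MMVD-CHF. CASP1, which cleaves the precursors of IL1B and IL18, had a log2 fold change of 0.41 (SE 0.23, edgeR FDR = 0.830), and its feature overlaps that of CASP4, so reads of the 2 genes could be counted on both.

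Of 29 genes that interleukin-1 is known to induce, 0 had an edgeR FDR below 0.1, beside 0.118% of all features. At an unadjusted p below 0.05, 3 were higher and 4 lower, beside 2.8% and 3.51% of all features. The median log2 fold change was -0.055, and the list was not tested as a set. The matrix protease ADAMTS5 had 41.9 ± 14.6 CPM in 10y-noCHF and 60.3 ± 21.98 CPM in 10y-MMVD-CHF (log2 fold change 0.53, SE 0.17, edgeR FDR = 0.448). The leukocyte adhesion molecule VCAM1 was estimated at 0.40 on the log2 scale (edgeR FDR = 0.779), and MMP13, with 138 counts in all, at 1.52 (edgeR FDR = 0.761). Lower values were seen for the cytokine TSLP (-0.72, SE 0.20, edgeR FDR = 0.323), the neutrophil chemokine CXCL8 (-1.21, SE 0.40, edgeR FDR = 0.480), the NF-kB inhibitor NFKBIA (-0.28, SE 0.095, edgeR FDR = 0.480) and NOS2 (-0.39, SE 0.18, edgeR FDR = 0.778). Which gene of the list passed depended on the method, with TSLP called by DESeq2 (FDR = 0.0833), ADAMTS5 by limma voom (FDR = 0.0869) and CXCL8 by edgeR with macrophage markers as a covariate (FDR = 0.0627). Without CAV614, TSLP also passed with edgeR (FDR = 0.0889).

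Relations between members and these target genes were computed after the data were seen, and 70 of 290 had an adjusted Spearman permutation p below 0.1, a count that was 33 without CAV614 and CAV1047. The share among other genes was not computed, so the count is not read as particular to these targets. Of the 70, IL1RN had 11 positive and 1 negative, and IL1RAP had 10 positive and 0 negative. The relations given below were picked from all 290. IL1R1 had 9 positive and 3 negative relations past the threshold. Its level rose with that of the adhesion molecules VCAM1 (r = 0.67, permutation p = 0.0001, adjusted 0.0032, rho = 0.70, permutation p = 5e-05, adjusted 0.0024) and ICAM1 (r = 0.79, permutation p = 2e-05, adjusted 0.0012, rho = 0.70, permutation p = 4e-05, adjusted 0.0023), and r was 0.74 and 0.63 without the 2 farthest dogs. NOS2, the inducible nitric oxide synthase, went the other way with IL1R1 (r = -0.60, permutation p = 0.00039, adjusted 0.0060, rho = -0.62, permutation p = 0.00025, adjusted 0.0056, r = -0.64 without the 2 farthest dogs). With IL1R2, NOS2 rose (r = 0.50, permutation p = 0.00561, adjusted 0.035, rho = 0.54, permutation p = 0.00234, adjusted 0.023, r = 0.58 without the 2 farthest dogs). MMP3, whose feature overlaps that of MMP1, showed the same opposition, with rho = -0.59 for IL1R1 (permutation p = 0.00061, adjusted 0.010) and 0.46 for IL1R2 (permutation p = 0.00913, adjusted 0.053). Without CAV614 and CAV1047, the relations of NOS2 with IL1R1 (rho = -0.58, permutation p = 0.00118, adjusted 0.024) and IL1R2 (rho = 0.55, permutation p = 0.00237, adjusted 0.034) still passed, whereas that of MMP3 with IL1R2 did not (rho = 0.44, permutation p = 0.0198, adjusted 0.140). The difference between the receptors in these relations was not tested. IL1B rose with CXCL8 (r = 0.56, permutation p = 0.00176, adjusted 0.016, rho = 0.55, permutation p = 0.00194, adjusted 0.021, r = 0.45 without the 2 farthest dogs) and with PTGS2, the inducible cyclooxygenase (r = 0.48, permutation p = 0.00447, adjusted 0.030, rho = 0.50, permutation p = 0.00324, adjusted 0.029, r = 0.38). Without CAV614 and CAV1047 the relation with CXCL8 passed (rho = 0.56, permutation p = 0.00197, adjusted 0.032) and that with PTGS2 did not (rho = 0.39, permutation p = 0.0324, adjusted 0.177).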

How the data were processed

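RNA-seq was performed on mitral valves of 34 dogs. The authors mapped 150 bp paired-end reads to canFam4 with STAR (version not given in the sources used here) and counted them with featureCounts 2.0.3, and the deposited values are these raw counts. A read was assigned to every feature it overlapped, without strand, and both reads of a pair were counted, so counts exceed molecules. The table holds 2165 canine RefSeq features and 21603 human alignments, and 1 column that belongs to no sample was not used. Sample groups and sex follow the labels, and p-values measure the spread between individual dogs.

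Each feature that reached 100 counts over the dogs was tested with edgeR 4.0.16 (TMM, quasi-likelihood, R 4.3.3) with CHF and sex as terms, Benjamini-Hochberg adjustment over all 19568 features and an FDR threshold of 0.1. Levels are CPM with TMM scaling, and 95% intervals are approximate (Wald). Within-dog ratios used a pseudocount of 0.1 CPM. Correlations used residuals of log2 CPM (prior count 2) on group and sex, with 100000 permutations within group and sex, two-sided. The 2 farthest dogs were those farthest from the median residual of 1 measure only. That measure was the marker list, the target gene or 1 gene of a pair of members. Alternatives were DESeq2 1.42.0 (the study's tool), limma 3.58.1 voom with sample weights, RLE and upper-quartile scaling, other filters, a robust fit, halved counts, the human alignment feature, no sex term, marker covariates, each sex alone, an FDR threshold of 0.05 and left-out dogs. The interstitial covariate, the relations with target genes and their values without CAV614 and CAV1047 were added after seeing the data. On simulated data, the CHF contrast was tried with edgeR, DESeq2 and limma voom, and the edgeR interaction with no change simulated. The Spearman permutation test was tried as well. The sex contrast, the Pearson p, the permutation of CHF labels and the gap rule described below were not.

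The members, lists and tests were chosen with earlier results of these data known. Named genes were the members, list genes with an unadjusted p below 0.05 or among the highest of a list, and the 3 features most like a member. Positions of canine features are those of RefSeq for the same assembly, since deposited starts lie 1 base before them. The 95% intervals include the spread between dogs, whereas the upper limits given for 0 counts cover counting error only. Sequences were not used here.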

Additional observations from a re-analysis of the deposited data

Results flagged for a closer look

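In each group and sex, the highest and lowest dog was compared with its nearest neighbour (Dixon's gap). Of 40 such groups of members, 6 held a dog far from the others. About 2 would be flagged if CPM were normally distributed. That was not tested, and some members varied together, so the 6 are not read against chance. The 10y-noCHF male CAV743 was far above the other males of its group in IL1A (1.66 CPM, next dog 0.54), IL1B (1.74 CPM, next dog 0.46) and IL18R1 (2.11 CPM, next dog 0.77). This dog also had the highest sums of macrophage and T cell markers of the 34 dogs (2006 CPM and 45.2 CPM, medians 1244 and 12.8), whose part in these values was not tested. The 10y-MMVD-CHF female CAV1872 had 2.08 CPM of IL18R1, next dog 0.64, and a T cell marker sum of 32.3 CPM. The 10y-noCHF male CAV865 had 15.01 CPM of IL1RL1, next dog 7.12. The 10y-MMVD-CHF male CAV2156 had 1109 CPM of IL33, next dog 632.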

How the results depend on the processing

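No paired analysis was possible because the dogs are different animals and the labels give no replicate numbers. The CHF contrast chose IL1R2, so refits of it on the same dogs are a description and no support. The IL1R2 log2 fold change was negative in all 16 alternative fits with all or part of the dogs and in the 34 fits that left out 1 dog. It was -0.61 in females only (FDR = 0.269) and -1.07 in males only (FDR = 0.649), so 0 members were called in either sex alone, and 0 with edgeR at an FDR threshold of 0.05, where the value stays -0.86. Below 0.05 were the FDR values of IL1R2 with DESeq2 (0.00536) and with the interstitial covariate (0.0308). Without each dog in turn the number of members called was 0 to 1 and the target genes called were 0 to 1. The target genes called were 1 with DESeq2, with limma voom and with macrophage markers as a covariate. Correlations past the threshold numbered 6 (without the 2 farthest dogs) and 5 (without CAV614 and CAV1047) between members, 13 (without the 2 farthest dogs) with marker lists, and 33 (without CAV614 and CAV1047) with target genes. The sex and interaction calls were 0 of 10 members in every alternative run.

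Of the members other than IL1R2, none passed the threshold, and 7 changed sign in at least 1 alternative or left-out dog. IL1RAP became 0.011 with limma voom, 0.035 without CAV614 and CAV1047, 0.0062, 0.011 and 0.0064 with cardiomyocyte, neutrophil and interstitial covariates and 0.097 in females only. IL1B became 0.012 with the neutrophil covariate and 0.63 in females only. IL33 became -0.057 with the macrophage covariate, IL18 0.073 in females only, IL1RN -0.038 in males only and IL1RL1 0.12 in males only. With dogs left out in turn IL1A ranged from 0.10 to 0.53, IL1B from -0.84 to 0.22, IL1RAP from -0.066 to 0.037, IL1RL1 from -0.28 to 0.050, IL33 from -0.029 to 0.13, IL18R1 from -0.15 to 0.48 and IL1R2 from -0.93 to -0.79. The cause was not tested. The human alignment alternative was not run for the pathway lists. DESeq2 called 64 features in all and edgeR 23. IL1A, IL1B and IL18R1 had the fewest counts, with medians of 25, 10 and 33 per dog, and the parts of depth and of spread between dogs in their errors were not tested.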
